A study of Mus musculus with 12 samples.

Results

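The genes described here let thymocytes mature, move through the thymus and leave it: S1pr1, Klf2, Ccr7, Itgb7, Il7r, Ccr9, Ccr4, Cxcr4 and Foxo1. They were chosen by name, 9 of the 55335 gene rows in each count table, with earlier results of these data known. Their share of calls is therefore not that of a blind choice. All 9 were matched by symbol and passed the filter on low counts in both assays. Thymocytes came from whole thymi of 6-week-old mice kept under specific pathogen-free conditions, and were kept with 0.1 mg/ml cycloheximide, a drug that arrests ribosomes on mRNA. The mice were labelled WT or miR-181a/b-1 KO, that is, lacking 1 of the genomic pairs of miR-181 genes. For each genotype, 3 mice gave RNA-seq libraries and ribosome footprint libraries, the latter being reads of the mRNA fragments that ribosomes protect from nuclease. The labels name no strain, no sort by maturation stage and no cell type to which the deletion is limited. In such bulk samples fewer cells of a type and less RNA per cell cannot be told apart.

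Developing T cells enter the cortex of the thymus, pass through a stage with both CD4 and CD8, and move to the medulla as single-positive cells after positive selection. CXCR4 and CCR9 act mainly in the cortex, whereas CCR4 and CCR7 guide selected cells into the medulla. In the most mature cells the transcription factor FOXO1 promotes transcription of Klf2, Il7r and Ccr7, KLF2 promotes transcription of S1pr1, and the receptor S1PR1 draws cells out towards the sphingosine 1-phosphate (S1P) of the blood. MicroRNAs of the miR-181 family are abundant in double-positive thymocytes, where they raise the sensitivity of T cell receptor signalling by repressing phosphatases.

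The products of the deleted pair are shown because their seed, bases 2 to 8 counted from the 5′ end and printed in capitals, is what a target transcript pairs with. The sequences are those of RefSeq (GRCm38.p6), and the printed products map to the plus strand at chr1:137966468-137966490 and chr1:137966650-137966673.
mmu-miR-181a-5p: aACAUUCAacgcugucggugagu
mmu-miR-181b-5p: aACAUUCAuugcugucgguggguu
Both of these strands carry the seed ACAUUCA. Other products of the pair were not examined.

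Reads in genes numbered 4479182 (KO replicate 2) to 8180286 (KO replicate 3) per RNA-seq library. They numbered 4069968 (KO replicate 3) to 17859770 (WT replicate 2) per footprint library. Summed over a genotype, each of the 9 genes had more footprint than RNA-seq reads. The row of Mir181a-1 had 133 to 166 CPM (a gene's reads scaled to library size by the TMM method) in WT footprints and 0.464 to 1.04 CPM in KO footprints. Its RNA-seq row held only 57 WT and 67 KO reads and did not check the genotype labels of the RNA-seq libraries, so WT and KO there mean the labels. All 12 thymocyte markers, among them Cd3e, Cd4, Cd8a and Rag1, were detected, and their summed RNA-seq level was 13935 to 15620 CPM in WT and 13501 to 14799 CPM in KO. In each assay the deposited counts of same-numbered WT and KO libraries deviated from their group means in opposite directions, with a correlation across genes of -0.99 to -0.95 over 7890 genes in RNA-seq and of -0.99 for each pair over 7140 genes in footprints. Differently numbered pairs gave 0.17 to 0.71 and 0.38 to 0.63. The spread between libraries may therefore not be the spread between mice, p-values measure only the former, and calls are given with their FDR when replicate number was added to the fit as a block (block FDR).

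The first question was which of the 9 genes changed in RNA. With edgeR's quasi-likelihood test, Klf2 and Ccr7 fell and Cxcr4 rose in KO at a Benjamini-Hochberg adjusted p (FDR) under 0.05. These were 3 of 9 genes, beside 6.91% of the 13652 genes tested, of which 3.48% were higher and 3.43% lower in KO. S1pr1 had the next largest difference after Klf2 but an FDR of 0.0616. In 4 of the 9 the genotypes did not overlap, 3 with all KO libraries below WT and 1 with all above, beside 30.9% of all genes (15.4% lower and 15.5% higher in KO). The median log2 fold change was -0.08 for the 9 genes and 0.00 for all genes. With the replicate block 0 of the 9 were called, beside 0.806% of all genes, and 4 had an unadjusted p under 0.05, beside 9.71% of all genes.

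In footprints, Cxcr4 rose and Itgb7 fell, 2 of 9 genes beside 17.6% of the 13509 genes tested, of which 9.25% were higher and 8.34% lower in KO. The genotypes did not overlap for 3 of the 9, namely Cxcr4, Itgb7 and S1pr1, beside 38.1% of all genes (18.5% higher and 19.6% lower in KO). The median log2 fold change was -0.13 for the 9 genes and -0.01 for all genes. With the block 0 of the 9 were called, beside 3.02% of all genes, and 2 had an unadjusted p under 0.05, beside 16.2%.

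**Figure D1:**
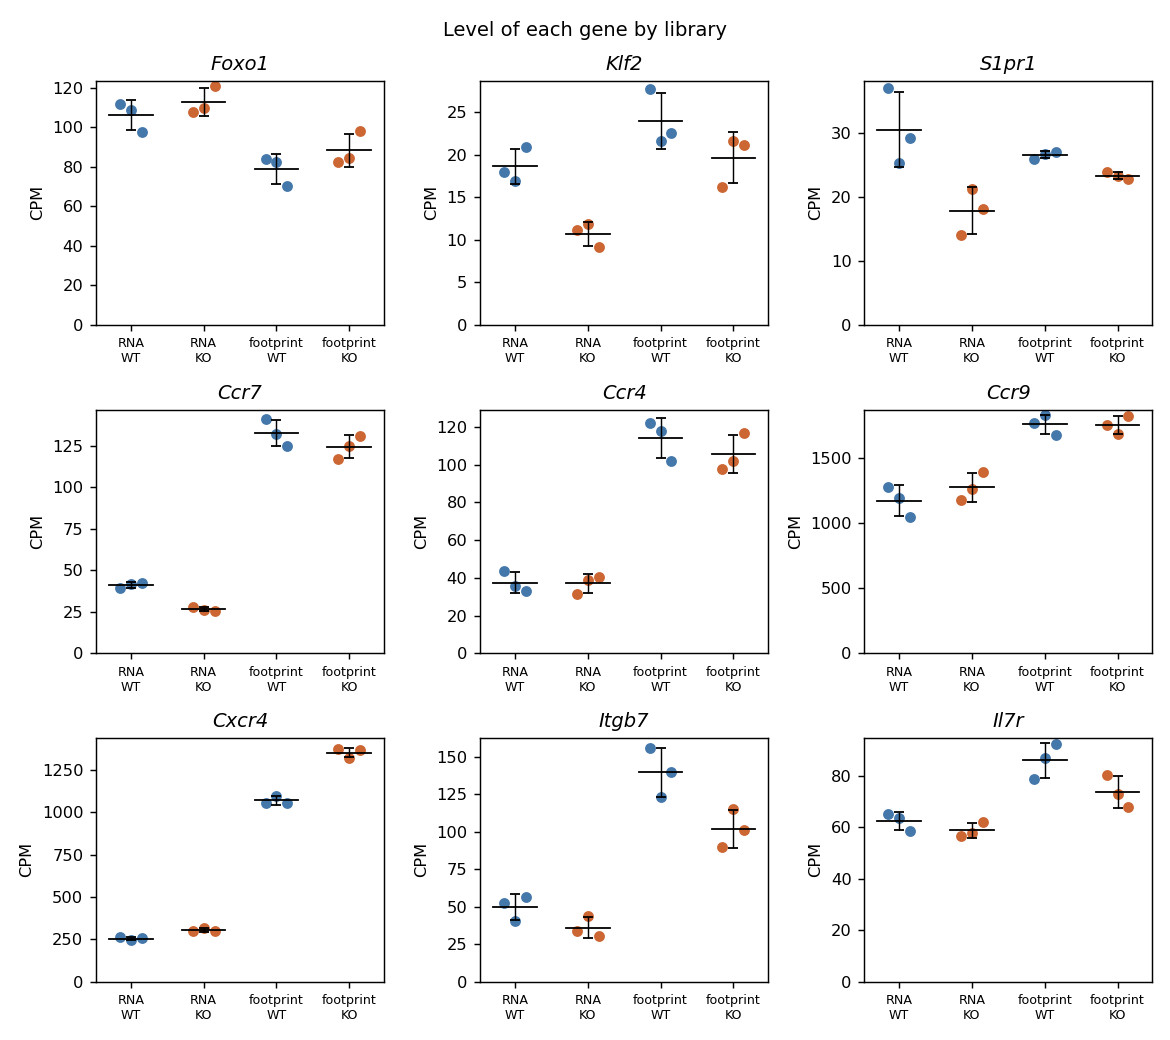
CPM of each of the 9 genes in each library (points, replicates 1 to 3 from left to right within a column), by assay and genotype; horizontal lines are means and error bars SD (n = 3). KO libraries lie below WT for Ccr7, Klf2 and S1pr1 in RNA-seq and above WT for Cxcr4 in both assays.

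Foxo1 encodes the transcription factor at the head of this programme, which AKT holds in the cytoplasm of signalled cells. Its RNA-seq levels were 112, 109 and 97.5 CPM in WT and 108, 110 and 121 CPM in KO. The genotypes overlapped, with the lowest value in WT replicate 3 and the highest in KO replicate 3. The log2 fold change was 0.09 (95% interval -0.10 to 0.28, edgeR FDR 0.531). Footprints of Foxo1 were at 84.2, 82.5 and 70.3 CPM in WT and 82.6, 84.5 and 98.2 CPM in KO, again overlapping. Their log2 fold change was 0.14 (-0.08 to 0.36, FDR 0.34).

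Klf2 encodes a zinc-finger factor of quiescent and emigrating T cells. In RNA-seq it had 18, 16.9 and 20.9 CPM in WT and 11.1, 11.8 and 9.11 CPM in KO, from 386 and 199 reads in all. Every KO library was below every WT library. Klf2 RNA fell by 0.82 on the log2 scale (SE 0.13, FDR 0.0223), to 0.566 times WT. With the block the FDR was 0.141, and leaving out any 1 of the 6 libraries ended the call (FDR 0.0501 to 0.0731, log2 fold change -0.89 to -0.71). Klf2 footprints were 27.7, 21.6 and 22.5 CPM in WT and 16.2, 21.6 and 21.1 CPM in KO. Here the genotypes met at 21.6 CPM, and KO replicate 1 was the lowest. The log2 fold change of -0.30 (95% interval -0.65 to 0.05) had an FDR of 0.215.

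S1pr1 encodes the S1P receptor that mature thymocytes need to leave the organ. Its RNA-seq levels were 37, 25.4 and 29.2 CPM in WT and 14, 21.3 and 18.2 CPM in KO. All KO values were below all WT values, and the libraries numbered 1 held both the highest and the lowest. The means were 30.5 ± 5.94 and 17.9 ± 3.65 CPM (SD, n = 3), a log2 fold change of -0.79 (SE 0.19, 95% interval -1.25 to -0.33). The FDR was 0.0616, 0.174 with the block, 0.0159 by DESeq2 and 0.0197 with no filter on low counts, so the call depended on the tool and the filter. S1pr1 RNA was significantly down in the authors' deposited table, with a log2 fold change of -0.59 and an adjusted p of 0.0138.

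Footprints of S1pr1 differed much less. They were 26, 26.7 and 27.1 CPM in WT and 23.9, 23.3 and 22.8 CPM in KO, from 1218 and 710 reads. The KO libraries again lay below WT, within a narrow range. The log2 fold change was -0.18 (95% interval -0.29 to -0.07), with an FDR of 0.0508, or 0.507 with the block. S1pr1 is also a gene of endothelium, whose marker list with mesenchyme summed to 218 to 223 CPM in WT RNA-seq and 247 to 258 CPM in KO. In that list 2 of 7 tested genes rose and 0 fell, beside 3.48% higher and 3.43% lower over all genes. These were Pecam1, which made up most of the sum, from 171 to 203 CPM (block FDR 0.589), and Pdgfrb from 7.79 to 12.3 CPM (block FDR 0.328). Of the other tested genes, Kdr averaged higher in KO (1.37 and 1.94 CPM). Col1a1 (10.6 and 7.89 CPM), Col1a2, Col3a1 and Dcn averaged lower. Cdh5, restricted to endothelium, averaged 1.25 CPM in WT and 0.816 CPM in KO, under the filter. The part of these cells in the S1pr1 values was not tested.

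Ccr7 encodes the receptor for CCL19 and CCL21, which leads positively selected cells into the medulla. In RNA-seq it had 39.3, 42 and 42.4 CPM in WT and 27.8, 25.8 and 25.6 CPM in KO, with no overlap and little spread within a genotype. Ccr7 RNA fell by 0.64 on the log2 scale (SE 0.07, FDR 0.00621), to 0.64 times WT. Each omission of 1 library kept the call (FDR 0.0281 to 0.037), whereas with the block the FDR was 0.11. Footprints of Ccr7 were 141, 132 and 125 CPM in WT and 117, 125 and 131 CPM in KO. These values overlapped between 125 and 131 CPM. The footprint log2 fold change was -0.10 (95% interval -0.25 to 0.05, FDR 0.309).

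Ccr4 encodes the receptor for CCL17 and CCL22, used soon after positive selection. It had 43.7, 35.7 and 33.1 CPM in WT RNA-seq and 31.5, 39.1 and 40.5 CPM in KO, with means of 37.5 ± 5.55 and 37 ± 4.88 (SD, n = 3). The genotypes overlapped, and the libraries numbered 1 held the extremes. The log2 fold change was -0.02 (95% interval -0.35 to 0.32, FDR 0.961). In footprints it had 122, 118 and 102 CPM in WT and 97.9, 102 and 117 CPM in KO. The overlap was again wide, at a log2 fold change of -0.13 (-0.35 to 0.09, FDR 0.382).

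Ccr9 encodes the receptor for CCL25 made by thymic epithelium. RNA-seq gave 1278, 1189 and 1047 CPM in WT and 1172, 1261 and 1393 CPM in KO, and footprints gave 1763, 1827 and 1678 CPM in WT and 1750, 1683 and 1823 CPM in KO. Both assays overlapped between genotypes. Their log2 fold changes were 0.12 (95% interval -0.11 to 0.36, FDR 0.498) and 0.00 (-0.12 to 0.11, FDR 0.972). Footprints of Ccr9 rested on 81161 WT and 52198 KO reads, the largest sums among the 9 genes.

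Cxcr4 encodes the receptor for CXCL12, which holds earlier thymocytes in the cortex and lowers as cells mature. It had 262, 245 and 257 CPM in WT RNA-seq and 297, 319 and 300 CPM in KO, with no overlap. The rise was 0.26 on the log2 scale (SE 0.06, FDR 0.0454). This call was lost with the block (FDR 0.574), with DESeq2 (0.056), with no filter on low counts (0.0807) and without any 1 of the 6 libraries (0.119 to 0.152, log2 fold change 0.23 to 0.28). RLE size factors kept it (FDR 0.0463). Cxcr4 RNA was significantly up in the authors' deposited table, with a log2 fold change of 0.25 and an adjusted p of 0.0487.

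Footprints of Cxcr4 were 1056, 1097 and 1055 CPM in WT and 1373, 1319 and 1365 CPM in KO. The gap between the genotypes was several times the spread within either. The means of 1069 ± 23.8 and 1352 ± 29.5 CPM (SD, n = 3) differed by 0.34 on the log2 scale (SE 0.04, FDR 0.00285). The call held without each of the 6 libraries in turn (FDR 0.0128 to 0.0166), and with the block the FDR was 0.0645. In the authors' deposited table Cxcr4 footprints were significantly up, with a log2 fold change of 0.33 and an adjusted p of 7.33e-11.

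Itgb7 encodes the integrin β7 chain, which pairs with the α4 chain to bind MAdCAM-1 in gut vessels and with the αE chain to bind E-cadherin on epithelium. In RNA-seq it had 52.8, 40.3 and 56.3 CPM in WT and 33.5, 43.8 and 30.4 CPM in KO. The genotypes overlapped through the libraries numbered 2, and the log2 fold change of -0.49 (95% interval -0.91 to -0.07) had an FDR of 0.152. In footprints it had 156, 123 and 140 CPM in WT and 89.8, 115 and 101 CPM in KO. No KO library reached the lowest WT library. Itgb7 footprints fell by 0.45 on the log2 scale (SE 0.12, FDR 0.0464). The call held with DESeq2 (adjusted p 0.0026) and with no filter on low counts (FDR 0.00418). With the block the FDR was 0.0966, with RLE size factors it was 0.0519, and the call was lost without KO replicate 1, KO replicate 3, WT replicate 1 or WT replicate 3 (FDR over all 6 omissions 0.0394 to 0.116).

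Dendritic cells also use β7 integrins, and the macrophage and dendritic cell marker list summed to 1128 to 1364 CPM in WT footprints and 934 to 1135 CPM in KO. Cd74 made up most of that sum, at 894 CPM in WT and 707 CPM in KO (FDR 0.0812, 0.186 with the block). Of the 8 genes 1 was called, beside 17.6% of all genes. This was Siglech of plasmacytoid dendritic cells, at 10.5 CPM in WT and 4.85 CPM in KO (FDR 0.0126, 0.0444 with the block). Lyz2 (109 and 117 CPM) and Cst3 (141 and 148 CPM) averaged higher in KO, and the other genes of the list lower. The part of macrophages and dendritic cells in the Itgb7 difference was not tested.

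Il7r encodes the α chain of the IL-7 receptor, which is off in most double-positive cells and returns after selection. RNA-seq gave 65.2, 63.6 and 58.4 CPM in WT and 56.5, 57.8 and 62.2 CPM in KO, overlapping, at a log2 fold change of -0.08 (95% interval -0.25 to 0.09, FDR 0.533). Footprints gave 78.7, 86.8 and 92.4 CPM in WT and 80.2, 73 and 67.8 CPM in KO. Only WT replicate 1 and KO replicate 1 overlapped. The footprint log2 fold change was -0.21 (-0.40 to -0.01, FDR 0.13).

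**Figure D2:**
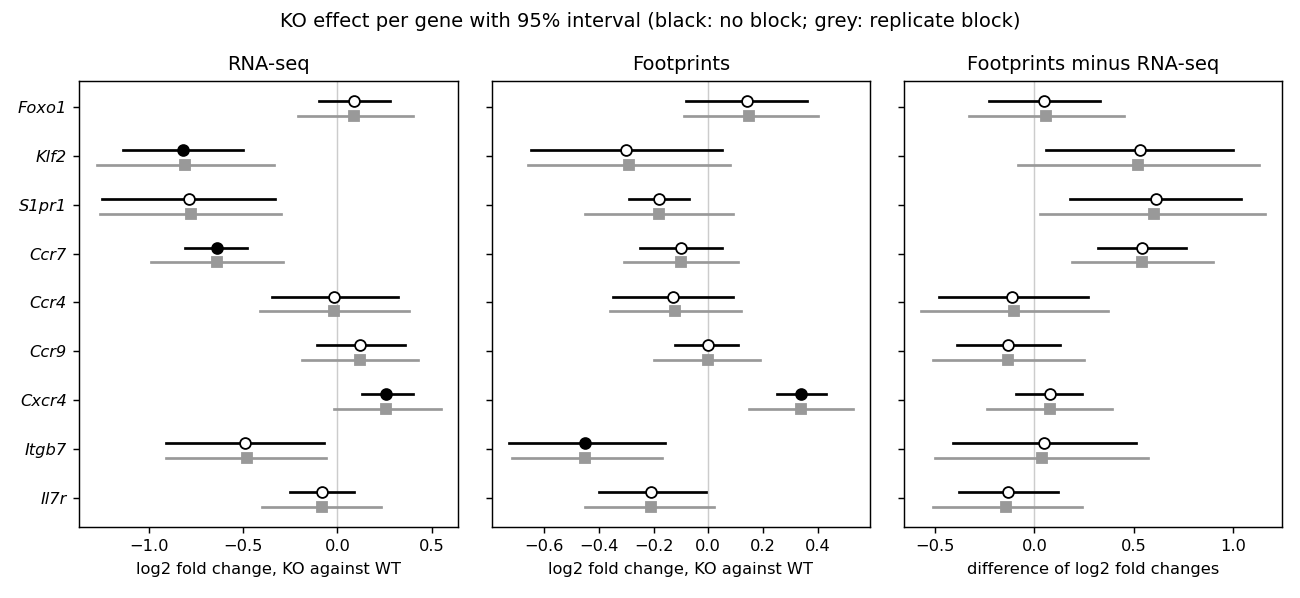
Log2 fold change of KO against WT in RNA-seq and footprints, and the difference of the 2, with 95% intervals; circles are the fit without a block (filled where FDR is under 0.05) and grey squares the fit with replicate number as a block. The estimates barely move between the fits, while the intervals of Ccr7 and Cxcr4 in both assays widen with the block.

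Whether footprints changed beyond RNA was asked with the genotype by assay interaction, fitted to the 12 libraries together. For Ccr7, S1pr1 and Klf2 the KO difference seen in RNA was smaller in footprints, by 0.54 (95% interval 0.32 to 0.76), 0.61 (0.18 to 1.04) and 0.53 (0.06 to 1.00) on the log2 scale. None of the 9 genes passed in edgeR, beside 0.211% of the 11854 genes tested. These 3 genes had an unadjusted p under 0.05, beside 14% of all genes, with FDRs of 0.0579, 0.207 and 0.294. DESeq2 gave no adjusted p for S1pr1 and Klf2 and called 1 of the other 7, Ccr7, at an adjusted p of 0.0115. With the block within each assay all 9 had an FDR of 0.998, where 0.0169% of all genes were called, and 2 had an unadjusted p under 0.05, beside 3.28%. For the other 6 genes the estimate lay between -0.13 and 0.08. The interval was narrowest for Cxcr4 (-0.09 to 0.24), whose RNA and footprints both rose, and widest for Itgb7 (-0.41 to 0.51).

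A second view of the same values is the log2 ratio of footprint CPM to RNA-seq CPM for each gene, described here with no test. This ratio also depends on the share of a transcript that is coding, which was not removed. The median over 11854 genes was -0.20 in WT and -0.16 in KO. In WT the ratio was 2.07 for Cxcr4, above 96.7% of genes, 1.69 for Ccr7, 1.60 for Ccr4 and 1.48 for Itgb7. These 4 surface proteins all stood above at least 90.8% of genes. Ccr9 (0.58), Il7r (0.46) and Klf2 (0.36) lay nearer the middle, S1pr1 was at the median (-0.20), and Foxo1 was at -0.43, above 43.2% of genes. In KO the ratio was 2.24 for Ccr7, 0.88 for Klf2 and 0.39 for S1pr1.

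**Figure D3:**
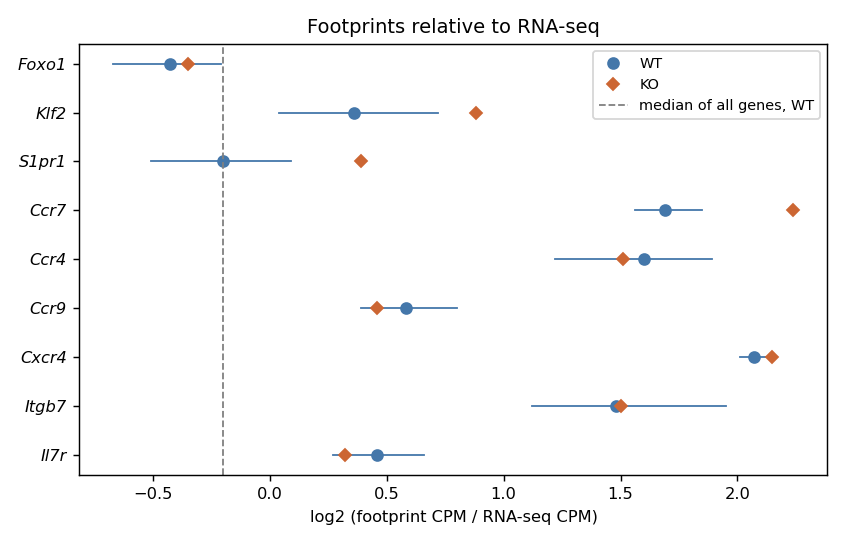
Log2 ratio of mean footprint CPM to mean RNA-seq CPM for each gene in WT (circles) and KO (diamonds); lines span the lowest to the highest ratio over all pairings of a WT footprint library with a WT RNA-seq library, and the dashed line is the WT median of all genes. The KO value lies outside the WT span for Ccr7, Klf2 and S1pr1 and inside it for the other 6 genes. The share of all genes outside their WT span was not computed, so this count has no background beside it.

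Lists of other genes of the same pathways were examined next, 144 genes without the 9, also chosen with earlier results of these data known. In RNA-seq 7 of the 125 tested rose and 11 fell (14.4%, beside 6.91% of all genes), and 1 of them, Tdrd5, was called with the block. In footprints 20 of 133 rose and 20 fell (30.1%, beside 17.6% of all genes), and 16 were called with the block. For translation 0 of 123 were called by edgeR and 1 by DESeq2. The values that follow are from footprints unless RNA-seq is named. Each list count stands beside 9.25% of all genes higher and 8.34% lower in KO in footprints. In RNA-seq these shares were 3.48% and 3.43%. The calls of a short list can be near these shares.

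Beside S1pr1 and Klf2, the S1P list held other S1P receptors, enzymes and transporters of S1P, and regulators of the receptor. There 3 of 13 tested genes rose and 0 fell, with a median log2 fold change of 0.13. Cd69, whose product binds S1PR1 and takes it off the surface of recently signalled cells, rose from 47.4 ± 2.84 to 71.3 ± 4.45 CPM (SD, n = 3), a log2 fold change of 0.60 (FDR 0.00309, 0.0138 with the block). Cd69 also rose in RNA-seq, by 0.64 (FDR 0.0315, 0.104 with the block), a call lost without any 1 of the 6 libraries (FDR 0.0516 to 0.0946). Klf6, a relative of Klf2, rose from 56.9 to 92.8 CPM, by 0.70 (FDR 0.000481, 0.00261 with the block). Grk2, a kinase that desensitizes S1PR1, rose by 0.31 (FDR 0.00944, 0.103 with the block). S1pr4, another lymphocyte S1P receptor, had a log2 fold change of 0.12 (FDR 0.532).

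Of the FOXO1 list, 1 of 10 tested genes rose and 3 fell in footprints, 0 were called in RNA-seq by edgeR, and none was called with the block. DESeq2 called Pdk1 in RNA-seq (log2 fold change -0.52, adjusted p 0.0154). Pdk1 fell by 0.48 (FDR 0.0357), Foxo4 by 0.22 (FDR 0.0136) and Mdm2 by 0.15 (FDR 0.0476). Without library 1 or 2 of either genotype the call of Pdk1 was lost (FDR over all omissions 0.0405 to 0.104), that of Foxo4 was lost without any KO library (0.0432 to 0.0749) and by DESeq2 (0.191), and that of Mdm2 without any 1 library (0.0675 to 0.186) and by DESeq2 (0.239). The symbol Pdk1 here is that of the mitochondrial pyruvate dehydrogenase kinase. The kinase of the AKT pathway that shares the abbreviation has the symbol Pdpk1.

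Among the other chemokine receptors, 1 of 14 tested rose and 4 fell. Ccr8, a receptor of some mature thymocytes and regulatory T cells, fell from 29.4 ± 2.79 to 16.8 ± 1.76 CPM (SD, n = 3), by 0.83 (FDR 0.00492, 0.0168 with the block). In RNA-seq Ccr8 fell by 1.27 (FDR 0.0185, 0.116 with the block), a call lost without library 2 or 3 of either genotype (FDR over all omissions 0.0396 to 0.0755). The remaining calls were at low levels and were named after their values were seen: Cxcr6 fell from 8.25 to 2.45 CPM (FDR 0.000407, 0.0034 with the block) and Cxcr2 rose from 1.79 to 4.91 CPM (FDR 0.000979, 0.0269 with the block). The calls of Cxcr3, from 3.68 to 2.18 CPM (FDR 0.00781), and Ccr10, from 1.1 to 0.24 CPM (FDR 0.00309), were lost with the block (0.222 and 0.0966).

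Of the thymic ligands, made mostly by stroma and dendritic cells, 1 of 11 tested genes fell and 0 rose. Over all genes 8.34% were lower and 9.25% higher in KO. Ccl25, the ligand of CCR9, was at 77.9 CPM in WT and 77.8 CPM in KO. Cdh1, the gene of E-cadherin that integrin αEβ7 binds, fell from 29.2 to 19.5 CPM, by 0.56 (FDR 0.00334, 0.0449 with the block). In the thymic epithelium marker list 1 of 8 genes was called, beside 17.6% of all genes. This was Epcam, at 38.3 CPM in WT and 26.2 CPM in KO (FDR 0.0339, 0.104 with the block). The list's sum was 146 to 199 CPM in WT and 148 to 210 CPM in KO. The part of epithelial cells in the Cdh1 difference was not tested.

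In the integrin list 1 of 12 tested genes rose and 5 fell, with a median of -0.26. Itgae, the αE partner of Itgb7, fell from 70.6 ± 3.01 to 39.1 ± 1.93 CPM (SD, n = 3), by 0.84 (FDR 0.000412, 0.00153 with the block). In RNA-seq Itgae went from 24.7 to 12.7 CPM, a log2 fold change of -0.98 (FDR 0.016, 0.0616 with the block). Itgb3 fell by 0.63 (FDR 0.0254) and its partner Itgav by 0.39 (FDR 0.00232), both with a block FDR of 0.0459. Itga4, the other partner of Itgb7, had a log2 fold change of 0.15 (FDR 0.244) in footprints and rose in RNA-seq by 0.39 (FDR 0.0196, 0.293 with the block). Itga5, of the fibronectin receptor, fell by 0.30 (FDR 0.042, 0.317 with the block). The RNA-seq call of Itgae was lost when KO replicate 1, KO replicate 3 or WT replicate 1 was left out (FDR over all omissions 0.0312 to 0.0689). The footprint call of Itgb3 was lost without library 1 or 3 of either genotype (0.0296 to 0.0635), and that of Itga5 without any library but WT replicate 3 (0.043 to 0.144) and by DESeq2 (0.178).

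**Figure D4:**
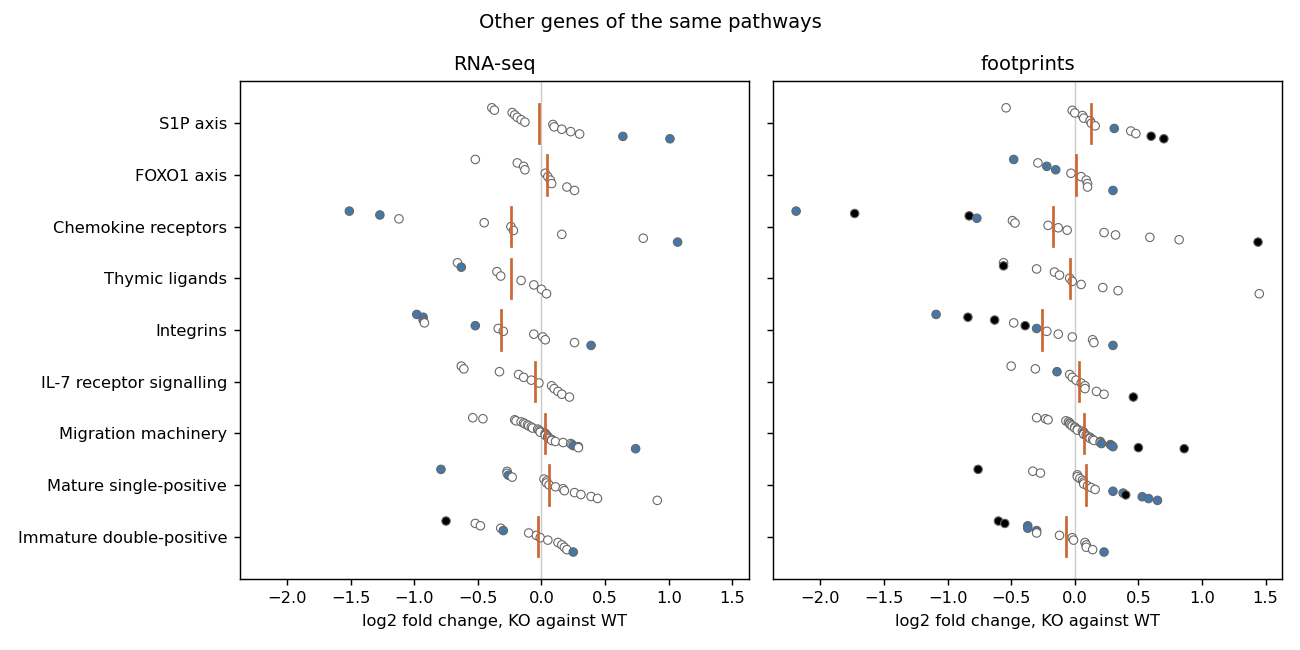
Log2 fold change of KO against WT for each tested gene of 9 pathway lists, without the 9 genes of the main account, in RNA-seq and footprints; open circles were not called, blue were called without a block, black also with the replicate block, and orange bars are list medians. Integrins have the lowest footprint median, at -0.26, and the S1P axis the highest, at 0.13.

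Of the genes of IL-7 receptor signalling, 1 of 12 rose and 1 fell, beside 9.25% higher and 8.34% lower over all genes. In RNA-seq 0 were called by edgeR. Mcl1, a survival gene of the BCL2 family, rose from 222 to 305 CPM, by 0.46 (FDR 0.00591, 0.0308 with the block). Pim1, a kinase gene induced through STAT5, fell by 0.14 (FDR 0.0327, 0.492 with the block), a call lost without any 1 library (0.0823 to 0.16) and by DESeq2 (0.366).

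The migration list held G protein subunits, exchange factors, GTPases, adaptors and RGS proteins. There 7 of 31 genes rose and 0 fell. Rgs2, which limits signalling by G protein-coupled receptors, rose from 42.1 ± 0.827 to 76.1 ± 1.73 CPM (SD, n = 3), by 0.86 (FDR 0.000174, 0.000868 with the block). In RNA-seq Rgs2 rose by 0.74 (FDR 0.0168, 0.111 with the block). Rgs10, of the same family, rose by 0.50 (FDR 0.0222, 0.0483 with the block). Omission of library 1 or 3 of either genotype ended the RNA-seq call of Rgs2 (FDR over all omissions 0.0327 to 0.0701), and omission of library 2 or 3 the footprint call of Rgs10 (0.0182 to 0.0795). Cdc42, a GTPase of cell polarity, rose by 0.30 and Pik3cg, a kinase downstream of chemokine receptors, by 0.29, with block FDRs of 0.0963 and 0.101.

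Stage markers did not move one way. Of the mature single-positive list 6 of 18 genes rose and 1 fell in footprints, whereas in RNA-seq 0 of 17 rose and 2, Ms4a4b (FDR 0.0169) and Tcf7 (0.0477), fell. Neither was called in RNA-seq with the block (0.0562 and 0.563), and the RNA-seq call of Ms4a4b was also lost without library 1 or 2 of either genotype (FDR over all omissions 0.0281 to 0.0626). In footprints Ms4a4b, a gene of mature T cells, fell from 159 ± 16.7 to 92.6 ± 10.3 CPM (SD, n = 3), by 0.76 (FDR 0.00547, 0.00648 with the block). Ms4a6b of the same cluster rose by 0.38 (FDR 0.00399, 0.0532 with the block). Cd28, the costimulatory receptor, rose by 0.53 (FDR 0.0104, 0.0719 with the block), and Gimap6, of a family of lymphocyte GTPases, by 0.40 (FDR 0.00516, 0.0438 with the block). The Ms4a and Gimap genes have similar copies, and reads with several alignments were counted apart from genes and left out. How many reads of these genes were lost in this way was not tested.

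Of the immature double-positive list 1 of 14 genes rose and 5 fell. Rmnd5a fell from 527 to 347 CPM, by 0.60 (FDR 0.000252, 0.00372 with the block), and Tdrd5 from 161 to 110 CPM, by 0.55 (FDR 0.000255, 0.00662 with the block). Tdrd5 also fell in RNA-seq, by 0.75 (FDR 0.00401, 0.0244 with the block). Ptcra, the gene of the pre-T cell receptor α chain, and Plxnd1, a semaphorin receptor gene of cortical thymocytes, each fell by 0.37, with block FDRs of 0.155 and 0.131; the call of Ptcra was lost without library 2 or 3 of either genotype (FDR over all omissions 0.0312 to 0.0996) and that of Plxnd1 without library 1 or 2 (0.0283 to 0.138). Among the thymocyte markers Cd4 rose from 1953 to 2902 CPM (FDR 0.00335, 0.0121 with the block), while Cd8a was at 2005 and 2140 CPM (FDR 0.272). Whether the mix of stages differed between genotypes was not tested, and it cannot be told apart from change within cells.

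The promoters of the 9 genes were searched because FOXO1 and KLF2 are known regulators among them. RefSeq windows of GRCm38.p6 were found for 7 of the 9, all but S1pr1 and Ccr7, and the 250 bases before the start were searched on both strands. The FOXO motif GTAAACA had 0 matches in the 7, and 3.17% of the 32851 windows of the table held it. The KLF motif CACCC, held by 52% of windows, occurred 4 times before Itgb7, once each before Klf2, Ccr9, Ccr4 and Cxcr4, and not before Il7r or Foxo1. The Itgb7 matches are printed, in capitals with their flanks, because Itgb7 fell in footprints and had the most matches; the gene is on the minus strand of chromosome 15, and each name gives the position of the window.
Itgb7 chr15:102232103-102232127: gtgggggcagGGGTGggggcaccgc
Itgb7 chr15:102231956-102231980: ctagatcagcCACCCtccaagagtc
Itgb7 chr15:102231937-102231961: agagtcccccCACCCcagggtgtgt
Itgb7 chr15:102231936-102231954: ccccaccccaGGGTGtgtc
The sequences run 5′ to 3′ along the gene, a match on the other strand reads GGGTG, and the last 3 windows overlap, the last ending at the start of the gene. A match of so short a motif is a description and not a binding site.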

How the data were processed

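Counts of reads per Ensembl gene in the 12 libraries are the authors' deposited values, named by them as adjusted. Which adjustment was made, on which genome build and annotation, and whether strand was used in counting, is not given in the sources. Bowtie2 2.5.1, STAR 2.7.10a, HTSeq 2.0.3, DESeq2 1.40.2 and FastQC are named in the submitters' processing notes. HTSeq's rows of reads outside genes (50.9% to 57.1% of RNA-seq reads and 5.32% to 6.39% of footprint reads in no feature) and of reads with several alignments were left out. The authors' deposited comparison tables give log2 fold changes and adjusted p-values; their 12 columns of per-library values were not used.

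Libraries were grouped by assay and genotype from their titles. Each assay was fitted with edgeR 4.0.16 (R 4.3.3): TMM, filterByExpr (minimum count 10), quasi-likelihood test, Benjamini-Hochberg adjustment over all genes tested, threshold 0.05. Translation was the interaction of genotype and assay in genes passing both filters, with TMM within each assay. CPM was computed from the deposited counts. The alternatives were DESeq2 1.42.0, RLE size factors, omission of the filter, replicate number as a block, and omission of each library. The fits were tested on simulated data. Those counts were drawn independently for each library, without the mirrored deviations of these data, so that test does not gauge the FDRs given here. Chi-square per degree of freedom between replicates was 3.41 to 12.9, above sampling noise.

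The 9 genes and the lists were chosen with earlier results of these data known. From the lists, called genes at an average log2 CPM of 3 or more were named, at most 4 per list by size of change. Comparison of levels between genes per coding length was planned and not run, because coding lengths were not used here. Gene symbols were matched by versioned ID for 54587 rows and without the version for 567. The values of 2 genes that the rules would name are not reported here.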

Additional observations from a re-analysis of the deposited data

How the results depend on the processing

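Same-numbered libraries deviated in opposite directions, so the number ties their deviations. The fit without a block takes the libraries as independent, and its SEs and FDRs may therefore be too small. For Ccr7 in RNA-seq the SE was 0.07 without the block and 0.16 with it. For Cxcr4 in footprints it was 0.04 and 0.08. The fit without a block was kept as the main fit only because the labels do not state what a number marks. With the replicate block, 110 instead of 943 RNA-seq calls were made over all genes, 408 instead of 2376 footprint calls, and 2 instead of 25 translation calls (block within each assay). Among the 9 genes 0 were called instead of 3 (RNA-seq) and 0 instead of 2 (footprints), and in the pathway lists 1 instead of 18 and 16 instead of 40. With DESeq2 the calls over all genes were 538, 1261 and 74, and for translation 1 of the 7 genes with an adjusted p (S1pr1 and Klf2 had none) and 1 list gene were called, against 0 of each in edgeR. RLE size factors left 1 of the 9 genes called in footprints.

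Leaving out 1 library gave 215 to 323 calls over all genes in RNA-seq, 1035 to 1554 in footprints and 6 to 24 for translation, 1 call among the 9 genes in RNA-seq and 1 to 2 in footprints, and 2 to 5 and 24 to 33 list calls. The direction turned for 5 uncalled values, whose log2 fold changes ranged from -0.11 to 0.10 (Ccr4, RNA-seq), -0.02 to 0.07 (Itgav, RNA-seq), -0.04 to 0.02 (Ccr9, footprints), -0.06 to 0.19 (Itgb7, translation) and -0.02 to 0.10 (Foxo1, translation). Of the values of single genes under all alternatives, 691 kept direction and side of the threshold, 151 lost a call, 7 gained one and 13 turned. The causes were not tested. Klf2 and S1pr1 had the fewest reads of the 9 genes, 199 and 332 over the 3 KO RNA-seq libraries.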

Other observations

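For each of the 9 genes, of which all but Cxcr4 are described, the gene with the most similar pattern was sought among 8100 genes whose average log2 CPM was 3 or more in both assays, by the Pearson correlation of log2 CPM centred within each assay over the 12 libraries. Flna, the gene of the actin-binding protein filamin A, was nearest to Itgb7 (r = 0.99). Flna had a log2 fold change of -0.32 in RNA-seq (edgeR FDR 0.156) and fell by 0.26 in footprints (FDR 0.0348, 0.194 with the block). 2700081O15Rik was nearest to Klf2 (r = 0.99) and fell by 0.50 in RNA-seq (FDR 0.0468, 0.223 with the block). The nearest genes to the others were Ccdc25 for S1pr1 (0.97), 1110004F10Rik for Ccr7 (0.99), Pon2 for Il7r (1.00), Rab14 for Ccr9 (0.99), Ctsl for Ccr4 (0.97) and Dnaja1 for Foxo1 (0.99). These values are a description: the libraries share the mirrored deviations of their replicate numbers, so the 12 points hold few independent ones, and the highest of 8100 correlations is high by selection.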
